A study of Mus musculus with 2 samples.

Results

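The microRNA-126 (miR-126) locus lies within Egfl7, a gene for a secreted protein of the vessel wall, and holds 2 annotated miRNA genes on opposite strands, Mir126a and Mir126b. These are 2 of the 2202 miRNA genes counted, and they were chosen by name, both rows being present in each table. By the reads counted, Mir126a was among the most abundant miRNA genes of the mouse adrenal gland, with 121007 CPM in library 2 and 53763 CPM in library 1. Mir126b, read from the same bases on the other strand, had 13 reads in library 2 and 7 reads in library 1. CPM is the number of reads of a gene per 1000000 reads counted on the strand of a miRNA gene in the same library. The samples are adrenal glands from 2 mice, both females of 25 days, of the strain B6CASTF1/J, an F1 hybrid of the laboratory strain C57BL/6J and the wild-derived strain CAST/EiJ, sequenced for RNA shorter than 30 nucleotides. They form 1 group with no treatment and no contrast, as biological replicates 1 and 2, here called library 1 and library 2. The labels number the glands as from different animals but give both the same donor identifier, so the spread between libraries may be partly technical. Dissection, library preparation and sequencing also enter that spread and cannot be told apart from the animals.

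miR-126 is best known as a miRNA of endothelial cells, the lining of blood vessels. The strand named 3p represses Spred1 and Pik3r2, whose proteins dampen signalling from the vascular growth factor VEGF, and Vcam1, an adhesion molecule for leukocytes. Its hairpin is cut from the transcript of Egfl7. The adrenal cortex is built as cords of steroid-producing cells set against sinusoidal capillaries, and the medulla holds catecholamine-producing cells. Egfl7 and other endothelial mRNAs are not in a microRNA table, so the endothelial label could not be checked against marker mRNAs here. In RNA from a whole gland, fewer cells of a type and less RNA per cell cannot be told apart.

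The sequences below show why 2 genes at 1 place could be told apart only by strand. They are from RefSeq on GRCm38.p6 (the assembly known as mm10), written 5′ to 3′. In the hairpins, capitals mark the mature miRNAs listed in that table. In the mature miRNAs, capitals mark the seed, bases 2 to 8, which pairs with target mRNAs.
Mir126a hairpin, plus strand, chr2:26591357-26591429: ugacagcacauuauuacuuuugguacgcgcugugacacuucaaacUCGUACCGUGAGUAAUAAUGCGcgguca
Mir126b hairpin, minus strand, chr2:26591363-26591420: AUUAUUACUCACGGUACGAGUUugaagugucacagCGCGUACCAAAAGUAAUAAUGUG
mmu-miR-126a-3p, chr2:26591402-26591423: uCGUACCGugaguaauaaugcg
mmu-miR-126b-5p, chr2:26591399-26591420: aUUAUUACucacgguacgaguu
mmu-miR-126b-3p, chr2:26591363-26591385: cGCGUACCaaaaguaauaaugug

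The Mir126b hairpin is the exact reverse complement of bases 7 to 64 of the 73 bases of the Mir126a hairpin, counted from its 5′ end. Mir126a therefore extends 6 bases before its partner and 9 bases after it. Of the 22 bases of mmu-miR-126a-3p, 19 lie opposite mmu-miR-126b-5p and 3 lie beyond the end of Mir126b. The 3 seeds differ from one another, and none is shared with another of the 1738 mature entries of the mouse table. That table does not list mmu-miR-126a-5p, so its seed and copies were not examined. The predicted minimum free energy was -31.2 kcal/mol with 27 base pairs for the Mir126a hairpin and -19.3 kcal/mol with 21 base pairs for the Mir126b hairpin, which is 58 bases long. In a search of 141767 GENCODE M21 transcripts on both strands, no gene other than Mir126a, Mir126b and Egfl7 held any of the 3 mature sequences. The counts here are per gene, so the arms of a hairpin were not separated, and mmu-miR-126a-5p is part of the Mir126a count.

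In GENCODE M21, Mir126a is ENSMUSG00000065540.1 and Mir126b is ENSMUSG00000105799.1. Egfl7 spans chr2:26580014-26593120 on the plus strand, the strand of Mir126a. Of its 19 annotated transcripts, 8 hold Mir126a in an intron, 1 (a retained-intron transcript) holds it in exon 4, and the other 10 do not span it. In 6 of the transcripts that intron is 600 bases long and spans chr2:26591064-26591663. A further annotated gene on the plus strand, Gm20532, also spans the locus. No annotated gene on the minus strand other than Mir126b overlaps it.

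The strand columns were compared first, since they decide what the locus reads as. On the strand of Mir126a there were 473413 reads in library 2 and 120647 reads in library 1. The reads opposite Mir126a, 13 in library 2 and 7 in library 1, were the same numbers as the gene-strand reads of Mir126b. The reads opposite Mir126b were 473403 in library 2 and 120644 in library 1, which were 10 and 3 fewer than the gene-strand reads of Mir126a. Those same 10 and 3 reads were all that the unstranded column held for Mir126a, and it held 0 for Mir126b in both libraries. Nearly all reads of the locus thus overlapped both genes and, with strand ignored, were assigned to neither.

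**Figure D1:**
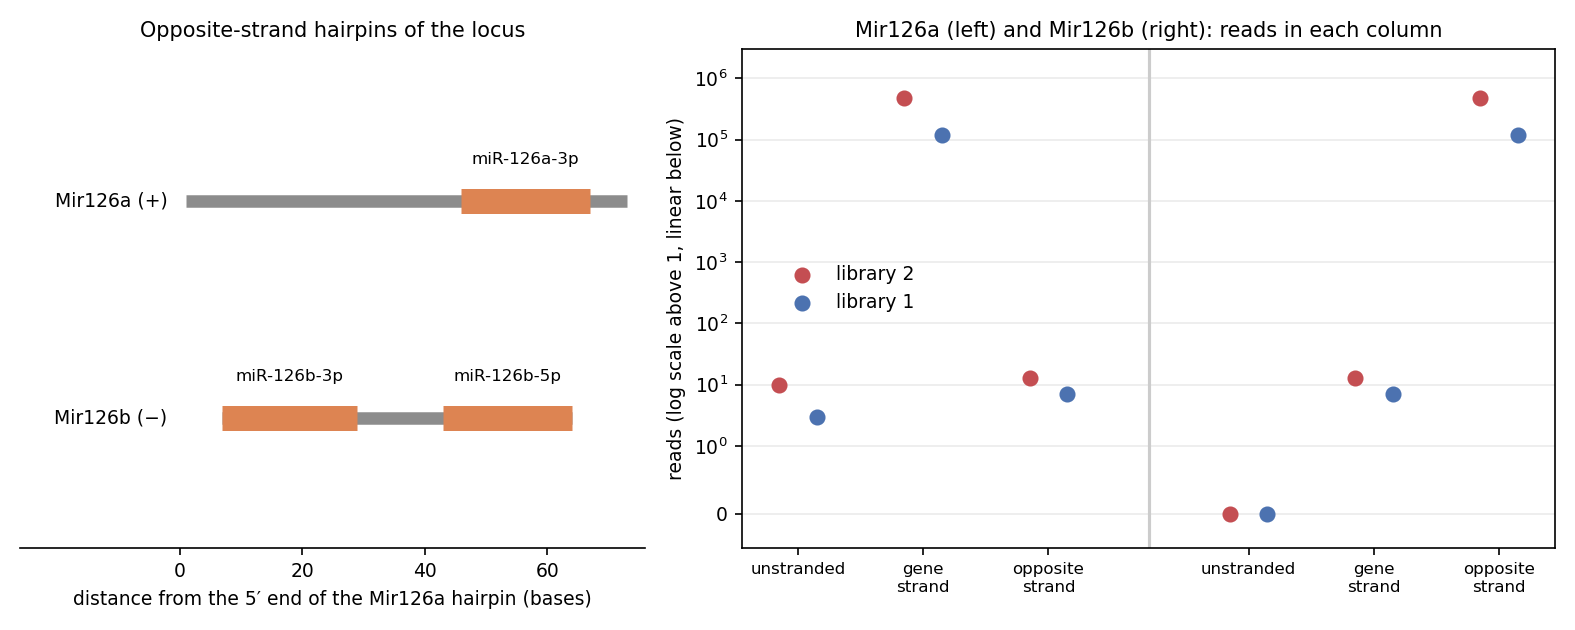
Left: extent of the hairpins (grey) and of their mature miRNAs in the RefSeq table (orange), in bases from the 5′ end of Mir126a. Right: reads of Mir126a and Mir126b in the unstranded, gene-strand and opposite-strand columns (axis logarithmic above 1), library 2 red and library 1 blue, where Mir126a has 473413 and 120647 reads on its strand but 10 and 3 reads in the unstranded column.

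The unstranded column kept 0.00211% of the 473426 locus reads in library 2 (95% Wilson interval 0.00115 to 0.00389%) and 0.00249% of the 120654 locus reads in library 1 (0.000846 to 0.00731%). All intervals cover counting error only, and PCR copies, which carry no molecular identifier here, make them too narrow. By that column Mir126a ranked 339th in library 2 and 402nd in library 1. The locus made up 56.8% of all reads set aside as ambiguous between genes in library 2 and 39.6% of them in library 1, the largest part of any pair in both. The values that follow are therefore from the gene-strand column.

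Mir126a took 12.1% of the miRNA reads of library 2 (95% Wilson interval 12.07 to 12.13%) and 5.38% of those of library 1 (5.35 to 5.41%). The mean level was 87385 ± 47549 CPM (SD, n = 2), the second highest of all miRNA genes by the reads counted. In library 2 it ranked first, with Mirlet7g, a let-7 family member of differentiated tissue, next at 99953 CPM. In library 1 it was at rank 3, below Mirlet7b with 82202 CPM and just above Mirlet7i with 51890 CPM. Its reads per read of Mirlet7i were 2.26 in library 2 and 1.04 in library 1, a ratio that no scaling between libraries can alter.

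**Figure D2:**
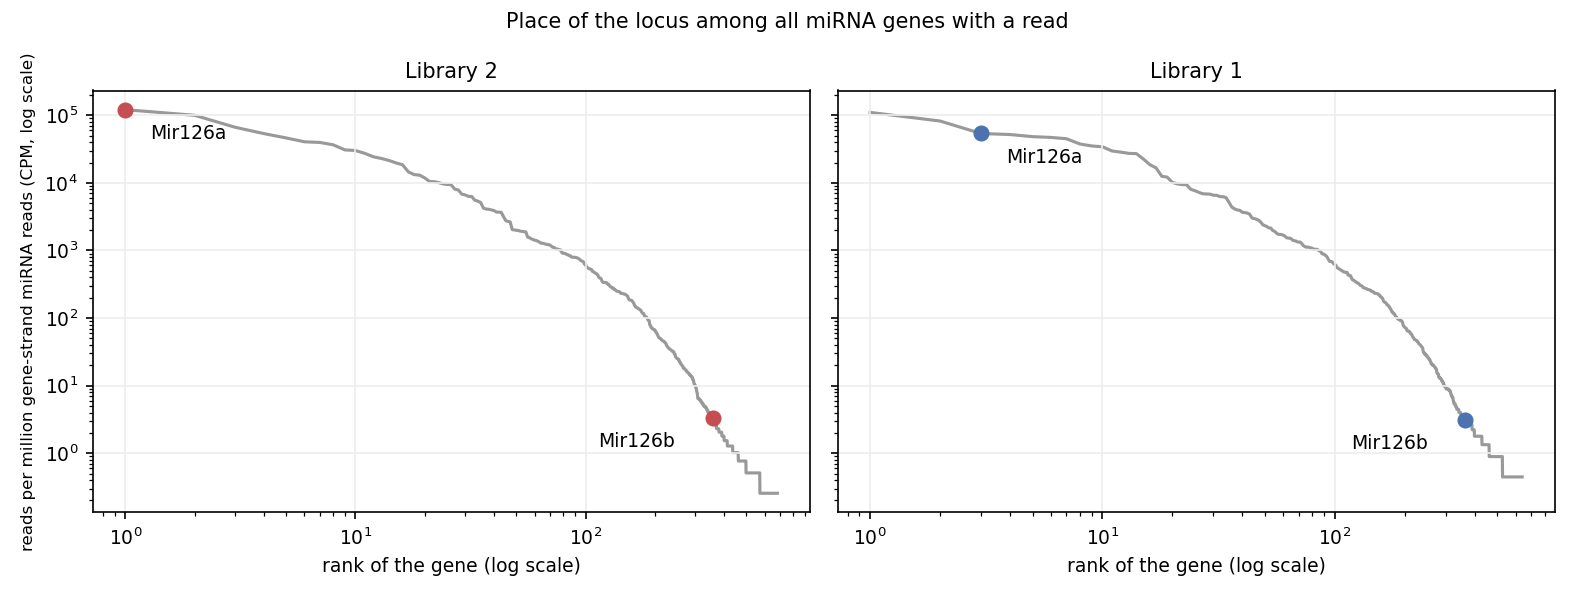
Level of every miRNA gene with a read (CPM) against its rank, both axes logarithmic, in library 2 (left) and library 1 (right). Mir126a stands at rank 1 and rank 3, and Mir126b at rank 354 and rank 362.

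Mir126b was near the limit of detection. Its 13 reads in library 2 (exact Poisson interval 6.92 to 22.2) were 3.32 CPM, and its 7 reads in library 1 (2.81 to 14.4) were 3.12 CPM. The mean was 3.22 ± 0.144 CPM (SD, n = 2), and the counting intervals of 1.77 to 5.68 CPM in library 2 and 1.25 to 6.43 CPM in library 1 are far wider than this spread. Mir126b held 0.00275% of the reads of the locus in library 2 (95% Wilson interval 0.0016 to 0.0047%) and 0.0058% in library 1 (0.00281 to 0.012%). There were 36416 reads of Mir126a per read of Mir126b in library 2 and 17235 in library 1. The intervals of the share overlap, and a difference in strand balance between the libraries was not tested.

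Reads opposite to genes that have no partner gave the background for so small a share. Over the 2138 such genes the opposite-strand share was 0.0088% in library 2, against 0.0103% in library 1. Mir203 and Mir708 held the greater part of those reads, and without both genes the share was 0.00205% in library 2 (95% Wilson interval 0.0016 to 0.00262%) and 0.00227% in library 1 (0.00169 to 0.00305%), a set chosen after the data were seen. The Mir126b share was above the values without both genes in each library, but its interval overlapped theirs each time. It was below the share over all 2138 genes in both libraries. In library 2 its interval did not overlap theirs of 0.00781 to 0.00991%, and in library 1 it overlapped theirs of 0.00898 to 0.0118%. The direction thus depends on leaving out Mir203 and Mir708. Among the 25 most abundant genes with no partner, 22 had 0 opposite-strand reads in both libraries. Mirlet7b had the most, 20 reads or 0.00548% of its reads, which was the only share of the 25 above the 0.00337% of Mir126b with the libraries summed. No test was run against this background. Whether the Mir126b reads came from that gene or were reads on the wrong strand was not tested.

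Other miRNA genes annotated on opposite strands show the range of strand balance. The tables hold 32 such pairs, of which 15 had at least 1000 reads with both libraries summed. Of the 14 pairs besides Mir126a and Mir126b, 10 had 0 reads of the weaker gene. They include Mir378a, which lies in the mitochondrial regulator gene Ppargc1b, with 0 of 263451 reads on the strand of Gm25301, which allows a share of up to 0.00114%, taking 3 reads of the total as the limit of a count of 0. The red cell gene Mir451a had 0 of 95920 reads on the strand of Mir451b, which allows up to 0.00313%, and Mir30e had 0 of 56903 on that of Mir30f, which allows up to 0.00527%. Mirlet7e had 0 of 53977 reads on the strand of Gm25927, which allows up to 0.00556%. The 95% Wilson interval of the Mir126b share, 0.00218 to 0.0052% with the libraries summed, lay above the Wilson upper bound of 0.00146% for the Mir378a pair and included that of 0.004% for the Mir451a pair. In the 4 of these 14 pairs whose weaker gene had reads, its share ran from 0.102% at Mir299a to 2.22% at Mir338. The share of Mir126b, 0.00337%, was below all 4, and the 10 pairs at 0 have no order against it where they allow a larger share. Higher shares stood among the pairs with fewer reads, with 18.4% at Mir24-1 and Mir3074-1 (28.9% in library 2 and 3.49% in library 1) and 7.21% at Mir486 and Mir3107. The counts of Mir24-1 and Mir486 are uncertain, as their mature miRNAs also come from another gene.

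**Figure D3:**
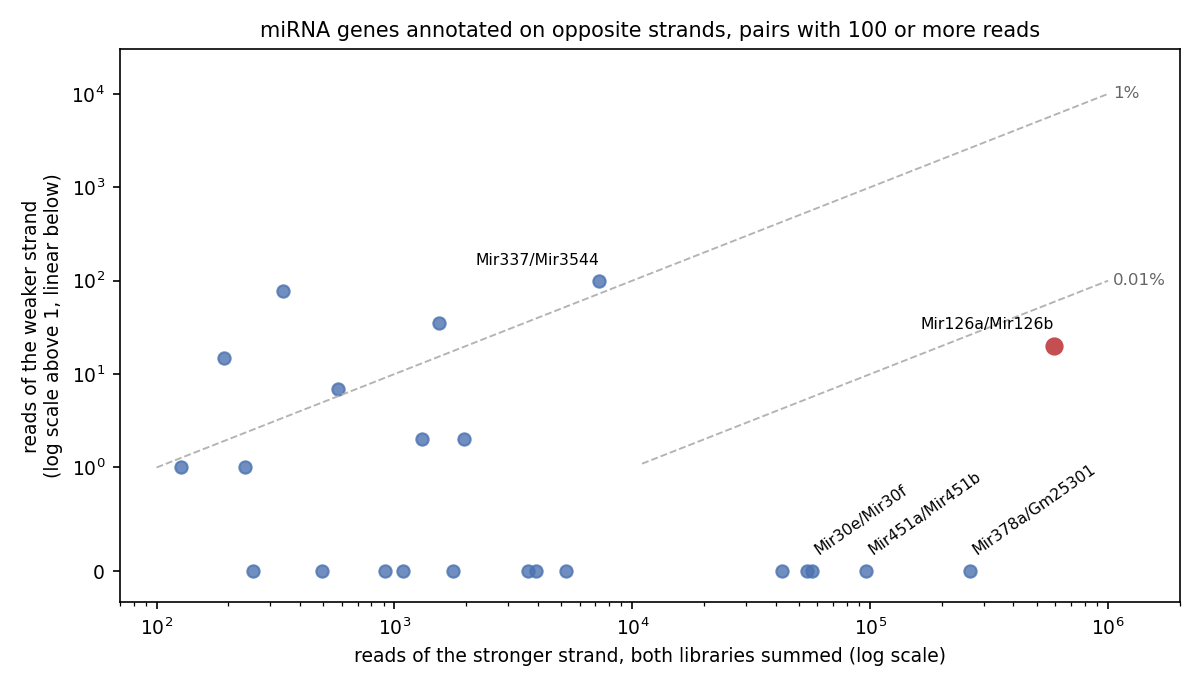
Reads of the weaker gene against reads of the stronger gene for the 23 opposite-strand pairs with 100 or more reads, libraries summed, both axes logarithmic (the vertical one linear below 1), with dashed lines at shares of 1% and 0.01%. Mir126a with Mir126b (red, 594060 and 20 reads) is the pair with the most reads and lies below the 0.01% line.

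Between the libraries, Mir126a was higher in library 2 and Mir126b did not differ detectably. The read counts of Mir126a given above correspond to a CPM ratio of 2.25. With TMM scaling the fold was 2.39 (log2 ratio 1.26, 95% counting interval 1.25 to 1.27) for library 2 over library 1. The two-sided exact binomial test of the reads passed with a Benjamini-Hochberg adjusted p below 1e-300. That test compares these libraries, not conditions, and takes no account of spread between animals. By it, with an adjusted p under 0.05 and a fold of at least 1.5, 15.1% of the 411 genes tested were called higher in library 2, 16.3% lower and 31.4% in all, so a call of this kind was common. Set against the spread between the libraries that edgeR estimated over all tested genes, a biological coefficient of variation of 0.387, the Mir126a difference did not pass, with an exact test p of 0.124 before and 1 after adjustment. By that rule 5 genes (1.22%) were called, 3 of them (0.73%) higher in library 2. The spread was estimated from the same 2 libraries and so contains the differences under test. Not passing is therefore not evidence of equal levels. For Mir126b the log2 ratio was 0.13, with a counting interval from -1.16 to 1.42 that includes both no difference and the ratio of Mir126a (adjusted p = 1 in the exact binomial test).

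Mir126a had the 28th highest log2 ratio of the 411 genes. Of the 82 genes with a mean of 1000 CPM or more, 14 were called higher in library 2 and 19 lower, beside 15.1% and 16.3% of all 411 tested. Among those 82 genes Mir126a had the fourth highest log2 ratio. Above it stood Mir451a, the miRNA of maturing red blood cells, with a log2 ratio of 5.74, Mir16-1, which comes from the Dleu2 transcript, with 1.35 and Mir99b, which shares a cluster with Mirlet7e and Mir125a, with 1.32. The 5 abundant genes with the log2 ratio nearest to that of Mir126a, over these 2 libraries, were Mir99b, Mir16-1, Mir107, Mir20a and Mir411. Mir99b had 8089 CPM in library 2 and 3441 CPM in library 1, and Mir16-1 had 2686 CPM and 1118 CPM in the same order. Mir107, from an intron of a pantothenate kinase gene (log2 ratio 1.01), Mir20a (0.92) and Mir411 of the imprinted Dlk1-Dio3 region (0.83) lay further off. With only a pair of libraries, likeness here means no more than a similar ratio.

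**Figure D4:**
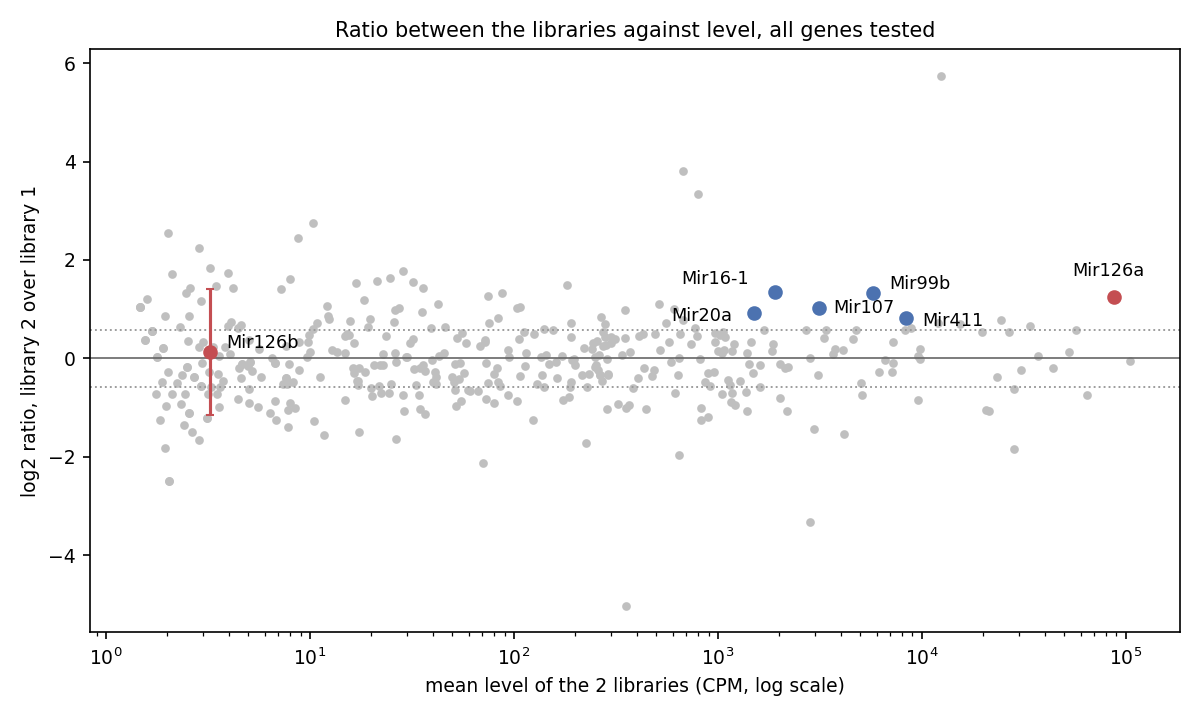
Log2 ratio of library 2 over library 1 (TMM scaling) against mean level (CPM, logarithmic) for the 411 genes tested, with dotted lines at a fold of 1.5 and bars for 95% counting intervals on the named genes. Mir126a (log2 ratio 1.26) lies above most genes of its level, and the bar of Mir126b runs from -1.16 to 1.42.

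Other miRNA genes studied in endothelium and vessel growth were called in both directions. With TMM scaling each direction was about as common as among all genes tested. Of the 28 on the list 27 were tested, of which 4 were higher in library 2, 5 were lower and 18 were not called, against 15.1% higher and 16.3% lower of all 411. The list had a median log2 ratio of 0.32 against -0.07 over all genes tested. Higher were Mir322 (log2 ratio 0.78), Mir20a (0.92) and Mir17 (0.59), the last a cluster neighbour of Mir20a, and Mir181b-1 with 24 reads in library 2 and 5 reads in library 1. Lower were Mir132, which cAMP signalling induces (-1.19), Mir101a (-1.02), Mir222 (-0.84), Mir27b (-0.74) and Mir24-1 (-0.64). Mir222 and Mir221, which share a primary transcript, had log2 ratios of -0.84 and 0.47. The most abundant members were Mir10a of the Hoxb cluster, with 66456 CPM in library 2 and 47032 CPM in library 1, Mir23b with 27236 CPM and 34158 CPM, and Mir23a with 30742 CPM and 22530 CPM. None of these 3 passed the fold of 1.5, Mir10a with a log2 ratio of 0.58 falling just short. The number called higher moved with scaling, to 8 with DESeq2 size factors and 2 with library size alone. Of all 411 genes, 132 were called with DESeq2 size factors, 54.5% of them higher. With library size alone 130 were called, 38.5% of them higher. The nearness to the share of all genes was thus seen with TMM scaling and was not kept with DESeq2 size factors. Genes of the list with near-identical copies, among them Mir24-1, Mir218-1, Mir181b-1, Mir23a and Mir23b, have uncertain counts, since reads that map to several places were left out. The same holds for Mir16-1 above and for Mir199b, Mir7-2 and Mir194-2 of other lists.

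Genes of mural cells and fibroblasts, which wrap and surround vessels, were called in both directions. Of 5 tested, Mir143 (log2 ratio 0.66) and Mir199b (1.63) were higher in library 2, Mir214 (-0.71) was lower and 2 were not called. Among all genes tested 15.1% were higher and 16.3% lower, and 5 genes are too few to set apart from those shares. With library size alone 1 of them was called higher, where 38.5% of the 130 calls over all 411 genes were higher. Mir143, a smooth muscle miRNA, had 40553 CPM in library 2 and 27293 CPM in library 1, while Mir145a, its neighbour in the same transcript, had 789 CPM and 847 CPM in that order. There were 2.98 reads of Mir126a per read of Mir143 in library 2 and 1.97 in library 1.

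The red blood cell genes Mir451a and Mir144 and the hepatocyte gene Mir122 had larger log2 ratios in size than Mir126a. The red blood cell list summed to 25715 CPM in library 2 and 680.5 CPM in library 1. Of its 3 genes, Mir451a (log2 ratio 5.74) was higher in library 2, as was Mir144 (3.33), while Mir486 (-1.03) was lower. Of all 411 genes tested 15.1% were higher and 16.3% lower, and 3 genes are too few to set apart from those shares. The count of Mir486 is uncertain, since Mir3107 on the opposite strand gives the same mature miRNA. Mir122, the main miRNA of hepatocytes, had 490.5 CPM in library 2 and 5185 CPM in library 1 (log2 ratio -3.32). The leukocyte list summed to 2655 CPM in library 2 and 3644 CPM in library 1, with 1 gene higher (Mir142, log2 ratio 0.85), 2 lower (Mir223 with -2.12 and Mir150 with -0.92) and 3 not called, beside the same shares of all genes tested, 15.1% and 16.3%. Its most abundant members were Mir146, Mir342 and Mir155, with log2 ratios of -0.45, -0.48 and 0.06. The part of these tissues in the Mir126a difference was not tested. Leaving the 3 red blood cell genes out of the library size, an alternative chosen after the data were seen, gave Mir126a a log2 ratio of 1.21, against 1.17 with library size alone.

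The endocrine and neuroendocrine list summed to 43559 CPM in library 2 and 42707 CPM in library 1. Mir375, a miRNA of endocrine cells and its leading gene, was nearly level with 36561 CPM in library 2 and 37574 CPM in library 1. Of 7 tested, 3 were higher in library 2, Mir7-2 (log2 ratio 1.26), Mir96 (0.63) and Mir7b (0.59), and none was lower, beside 15.1% higher and 16.3% lower of all genes tested. With library size alone 1 of them was called higher, where 38.5% of the 130 calls over all 411 genes were higher. Mir182 had a log2 ratio of 0.49. Reads of Mir126a per read of Mir375 were 3.31 in library 2 and 1.43 in library 1. The epithelium and kidney list summed to 125.8 CPM in library 2 and 168 CPM in library 1, led by Mir194-2, Mir192 and Mir200c. Of its 8 tested genes Mir200b (-1.56) was lower, on 22 reads in library 2 and 40 in library 1, and the others were not called. The gonad list summed to 1607 CPM in library 2 and 1590 CPM in library 1, led by Mir34c, Mir449a and Mir34b, with none of 4 called. Both lists hold too few genes to set apart from the 15.1% higher and 16.3% lower of all genes tested. Whether any reads of the gonad list came from gonad tissue was not tested. Of the 7 striated muscle genes 6 had 0 reads in both libraries, and Mir206 had 5 reads in library 2 and 9 in library 1. The counts of 0 for Mir1a-1, Mir1a-2, Mir133a-1 and Mir133a-2 carry no information on muscle, since each shares a mature miRNA with its copy and reads that map to several places were left out. The exocrine pancreas list had 4 reads in each library.

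**Figure D5:**
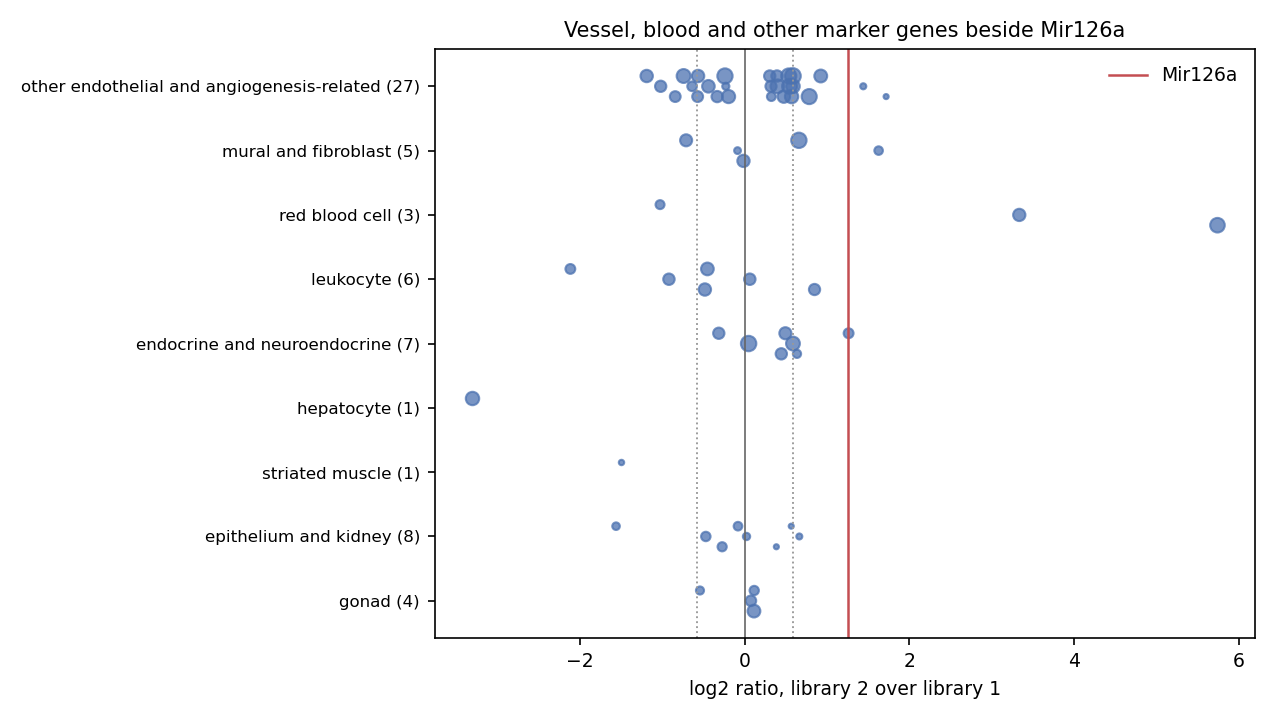
Log2 ratio of library 2 over library 1 for each tested gene of the lists (number tested in brackets), point size growing with the logarithm of the mean CPM, dotted lines at a fold of 1.5 and a red line at the 1.26 of Mir126a. The other endothelial and angiogenesis-related genes lie on both sides of 0, while Mir451a and Mir144 lie far to the right and Mir122 far to the left.

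The libraries held 11132685 reads in library 2 and 7938596 in library 1, of which 35.1% and 28.3% were counted on the strand of a miRNA gene. Mir126a alone made up 4.25% of all reads of library 2 and 1.52% of all reads of library 1. The labelled tissue has no defining miRNA of its own in these lists, so the label was not checked against one. Among genes of other tissues, Mir122 of hepatocytes stood at rank 107 in library 2 and rank 35 in library 1.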

How the data were processed

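Small RNA was sequenced from 2 adrenal glands, 1 library each. The authors deposited raw read counts for each miRNA gene, unnormalized and unpooled. The assembly is mm10, per the labels, with the GENCODE M21 annotation, per the text deposited with the tables. The aligner, the counter and the trimming were not given in the sources used here. No header names the columns, and the meaning of the 3 columns (unstranded, gene strand, opposite strand) was taken from their layout and values. Reads mapped to several places, in no gene's count, were 27.5% of library 2 and 28.4% of library 1. Rows that name no gene (unmapped, several places, outside genes, ambiguous) stayed out of library sizes. Reads of CAST alleles that differ from the reference may be mapped less often.

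All 2202 identifiers matched GENCODE M21. Genes with 10 or more reads summed over libraries were tested by splitting each gene's sum between the libraries in proportion to TMM library sizes (exact binomial test, two-sided), with Benjamini-Hochberg adjustment. A quasi-likelihood test was not possible with 1 group. Log2 ratios add 0.5 read to each count. Detection of a list gene meant 10 reads in each library. The script was tested on simulated Poisson counts of 418 genes. There 100% of genes with a true fold of 2 and 42.6% of those with 1.5 were called for library 2 over library 1. Of unchanged genes 0.459% were called. The simulated counts hold no spread between libraries beyond counting error, so these rates do not carry over to the real libraries. Hairpins were folded with ViennaRNA 2.7.2. R 4.3.3, edgeR 4.0.16, DESeq2 1.42.0, Python 3.11.15, scipy 1.17.1, pandas 2.3.3 and matplotlib 3.10.9 were used. Alternatives changed the scaling, the filter, the offset, the column, the test and the library left out.

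Both members, the lists and the tests were chosen with earlier results of these data known. Named genes are the members, their neighbours in rank, the 5 genes nearest in log2 ratio with 1000 CPM or more, the 3 most abundant detected members of each list and the 4 opposite-strand pairs with the most reads. Genes named outside this rule (called list members, Mir206, Mir299a, Mir338, Mir24-1, Mir486, Mir203, Mir708 and Mir221) were chosen after their values were seen. Mir92-1, Mir18, Mir146, Mir7-1 and Mir7-2 stand in the lists under their GENCODE M21 names.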

Additional observations from a re-analysis of the deposited data

How the results depend on the processing

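No paired analysis was possible because the labels name no contrast. The Mir126a log2 ratio lay between 1.17 and 1.48 over 9 alternatives, all higher in library 2. It did not pass edgeR's exact test with the common dispersion, at a log2 ratio of 1.26 (adjusted p = 1). That test uses the spread between the libraries in place of counting error alone. The spread was estimated from the libraries compared and so contains the difference under test. The Mir126b log2 ratio lay between 0.05 and 0.36 over 8 alternatives and was not called in any. With 100 reads required in each library it could not be tested. Per 1000000 of all reads in the tables the mean levels were 28861 for Mir126a and 1.02 for Mir126b. Without the locus in the library size Mir126b was at 3.54 CPM. The unstranded column gave 2.40 CPM and rank 363 for Mir126a and 0 for Mir126b. Genes called between the libraries numbered 129 of 411 tested (31.4%), against 82 of 223 tested with 100 reads in each library. Of the same 411 genes, 5 were called with edgeR's exact test and 65 at a fold of 2. With no fold required 240 of them were called, an alternative chosen after the data were seen. The share of calls higher in library 2 was 48.1%, against 38.5% of 130 calls with library size only and 54.5% of 132 with DESeq2 size factors. With no filter on low counts it was 66.4% of 128 calls, among 751 genes tested. The filters change the number tested, so the counts of calls alone do not compare between them. Leaving out the filter shifted all log2 ratios by 0.17, and scaling by all reads by 0.23. The endothelial and angiogenesis-related list had 8 genes called higher with DESeq2 size factors and 2 with library size alone, where the mural and endocrine lists had 1 each. With 100 reads in each library the endothelial list had 7 genes called higher, the mural list 1 higher, the red blood cell list 0 lower and the leukocyte list 1 lower. The cause of these changes was not tested, beyond fewer genes being tested under the higher filter. Opposite-strand reads at genes with no partner averaged 0.00956% of reads, and 0.00216% without Mir203 and Mir708. Leaving out either library gave 53763 to 121007 CPM for Mir126a. Depth limits statements on Mir126b, at 7 and 13 reads.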
